A study of Homo sapiens with 9 samples.

Results

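The genes described here encode the ubiquitin brakes of NF-kB and the enzyme complex they act against. They are 9 of the 60656 genes in the deposited count table, taken by symbol: TNFAIP3 (which encodes A20), its partners TNIP1, TNIP2 and TNIP3, the deubiquitinases OTULIN and CYLD, and RNF31, RBCK1 and SHARPIN, the 3 subunits of the linear ubiquitin assembly complex (LUBAC). RNA was sequenced from RIVA, a long-established human lymphoma cell line (diffuse large B-cell type, activated B-cell-like subtype), transduced with a doxycycline-inducible lentiviral vector and selected with puromycin. Cells carried BCL10 S136X (a truncation), BCL10 R58Q (a substitution in the CARD domain) or no insert (vector, which the labels list as BCL10 wild type), and all 3 groups, vector included, received doxycycline for 24 h, with 3 replicates each. The dose is 200 ng/mL in the paper and the treatment protocol, and 200 ng/µL in the sample characteristics. Both mutants were expressed on top of the endogenous gene, and none of the libraries comes from cells with induced wild-type BCL10. More BCL10 and the mutation itself therefore cannot be told apart in any comparison with vector.

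BCL10 forms filaments with MALT1 that recruit ubiquitin ligases. LUBAC attaches linear ubiquitin chains that hold the IKK complex near its activating kinase, and these chains are read by adaptors and removed by OTULIN and CYLD. A20 is a ubiquitin-editing enzyme induced by NF-kB itself and a classic feedback inhibitor, which is often lost in activated B-cell-like lymphoma. The ABIN proteins, encoded by TNIP1, TNIP2 and TNIP3, bind ubiquitin and A20. MALT1 is also a protease, and A20, CYLD and HOIL-1 (the product of RBCK1) are among its known substrates. Transcript counts carry no information on that cleavage. By western blot, the paper reports more cleavage of the A20 and CYLD proteins in cells with the mutants.

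Total counts ranged from 28047713 to 33122267 per library. BCL10, whose reads include the construct, was counted 885 to 1268 times in the vector libraries, 9838 to 14293 times with S136X and 10117 to 10596 times with R58Q. The B-cell markers MS4A1, CD79A, CD79B, PAX5 and CD22 were well expressed, and 0 of them were called in either mutant. Of the markers of the activated B-cell-like subtype, IRF4, FOXP1 and PIM1 were expressed and CCND2 was at 0 or 1 counts. T-cell and myeloid markers had at most 12 counts in a library. EPCAM, an epithelial marker, had 1019 to 1751 counts, with a log2 fold change of -0.03 for S136X and -0.0034 for R58Q. COL1A1, a fibroblast marker with 103 to 562 counts, rose with the members (1.65 and 1.77, edgeR adjusted p = 0.00648 and 0.00263), while COL1A2 had 23 to 167 counts and its mean level was highest in vector. The part of such transcripts in the results was not tested. The names of the deposited columns carry one date for vector and S136X and a later one for all R58Q libraries, so the date and the R58Q construct cannot be told apart in any comparison with R58Q. Levels are given as CPM, counts scaled to the size of each library with TMM factors. In these bulk samples, more or fewer cells of a kind and more or less RNA per cell cannot be told apart.

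Promoter sequence was read for the members because NF-kB binds a short DNA motif, the kappaB site. RefSeq windows (GRCh38.p14) from 250 bases before to 50 bases after each annotated start were given for 8 of the 9 members, 14 windows in all. A 10-base kappaB consensus was searched on both strands. It was found in 6 of these 14 windows and in 5.91% of all 35116 windows. The following stretches of 30 bases, 5′ to 3′ on the strand of the gene, hold each match in capitals.
TNFAIP3, chr6:137867188-137867217, plus strand: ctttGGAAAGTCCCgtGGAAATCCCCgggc
TNIP1, chr5:151081057-151081086, minus strand: ccagtctccgGGGACTTTCCcaggggtggg
CYLD, upstream start, chr16:50741887-50741916, plus strand: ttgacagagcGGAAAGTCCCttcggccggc
CYLD, downstream start, chr16:50742405-50742434, plus strand: cccccccaccGGGGCTTCCCcatcccccga
TNIP3, upstream start, chr4:121227526-121227555, minus strand: tcttaaaaaaGGGGTTTCCCtgtgtatggg
TNIP3, downstream start, chr4:121164363-121164392, minus strand: gagacatcctGGGAAATCCCtatttggaag
TNFAIP3 alone among these windows had 2 matches. Of all windows, 0.738% had 2 or more. They begin 67 and 55 bases before the start, on the opposite strand, in a stretch that GENCODE 29 places within an exon of another TNFAIP3 transcript. The TNIP1 match begins 42 bases before its start, and 28 of the 30 bases shown lie in an exon of another TNIP1 transcript. The stretches of CYLD and TNIP3 hold 0 bases that GENCODE 29 places in exons of their genes. The CYLD matches begin 189 bases before the upstream start and at the downstream RefSeq start itself. Those of TNIP3 begin 62 and 61 bases before its starts. The windows of TNIP2, OTULIN, RNF31 and RBCK1 held no match, and neither did another window of each of TNIP1, TNIP3 and CYLD. This says only that these letters are not there.

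Which of these genes moved when a BCL10 mutant was induced was asked by comparing each mutant with vector. TNFAIP3, TNIP2 and OTULIN rose in both mutants. TNIP1 rose by less than 1.5-fold in both, and CYLD by less than 1.5-fold in R58Q. RBCK1, SHARPIN and RNF31 did not pass the test in either mutant, and TNIP3 had 0 counts. A gene was called at a Benjamini-Hochberg adjusted p under 0.05 in edgeR's quasi-likelihood test and a change of at least 1.5-fold. By this rule 3 of the 8 tested members were higher in S136X and 0 lower, where 2.05% of all genes tested were called higher and 1.82% lower. In R58Q 3 of 8 were higher and 0 lower, with 4.09% of all genes called higher and 3.54% lower. Without the fold threshold the numbers were 4 of 8 in S136X (background 6.03%) and 5 of 8 in R58Q (background 12.3%). All 3 mutant libraries lay above all 3 vector libraries for 4 of 8 members in S136X (16% of all genes) and 5 of 8 in R58Q (21.1% of all genes). The median log2 fold change over the 8 was 0.27 in S136X and 0.42 in R58Q, and over all genes tested it was -0.02 and -0.03. All 8 had at least 44 counts in every library, so none entered the test through one group alone. The members were chosen with earlier results of these data known. Their counts beside the background are therefore a description and no independent test.

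**Figure D1:**
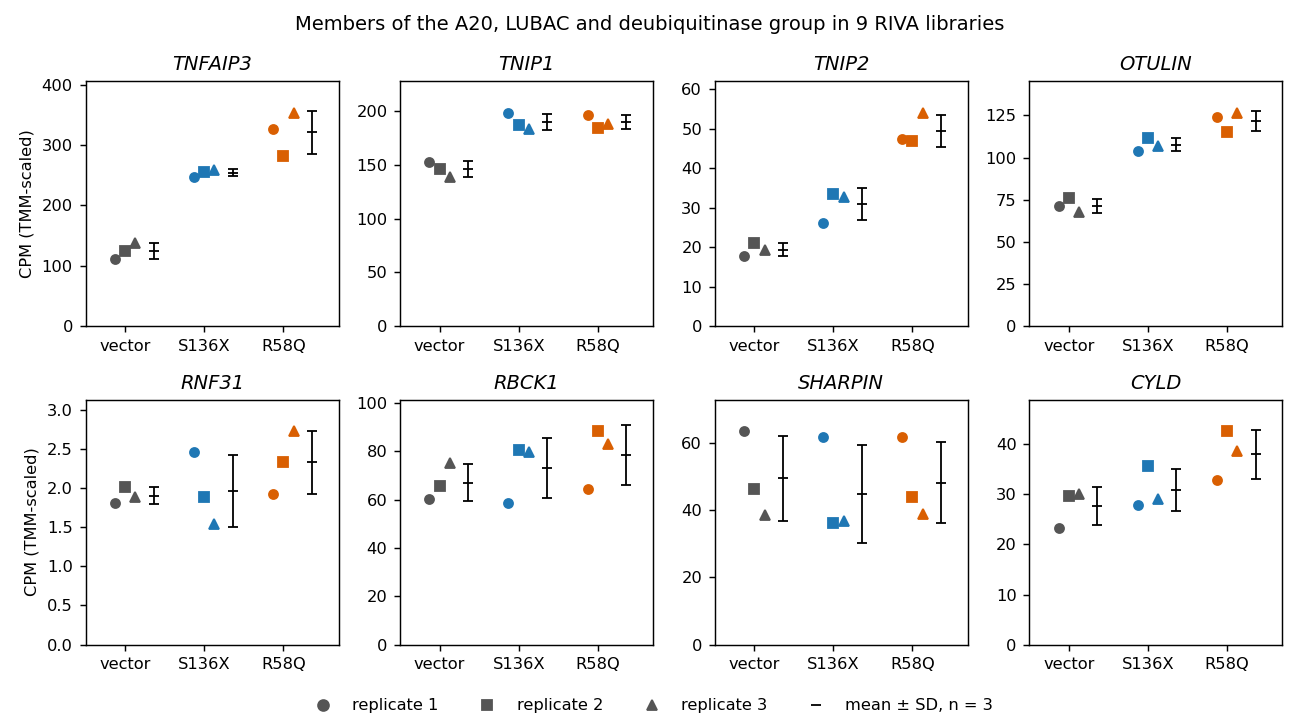
Levels of the 8 detected members in each library, in CPM scaled by TMM factors on axes that start at 0, for vector, S136X and R58Q (point shape marks the replicate number, bars the mean ± SD of 3 libraries). TNFAIP3, TNIP1, TNIP2 and OTULIN lie above all vector libraries in all 6 mutant libraries, and SHARPIN is highest in replicate 1 of every group.

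TNFAIP3 (ENSG00000118503.15, chromosome 6 of GRCh38, 137867214 to 137883312, plus strand) encodes A20. It was read at 111.4, 124.3 and 138.0 CPM in vector replicates 1 to 3, at 247.2, 255.4 and 258.6 CPM in S136X and at 327.1, 282.4 and 352.9 CPM in R58Q. The 3 groups did not overlap, with vector lowest and R58Q highest. The rise was 2.04-fold in S136X (log2 fold change 1.03, standard error 0.0808, edgeR adjusted p = 0.000278) and 2.57-fold in R58Q (1.36, standard error 0.105, edgeR adjusted p = 0.000141). In fits that left out 1 library the log2 fold change stayed between 0.96 and 1.12 in S136X and between 1.29 and 1.45 in R58Q, and the call was kept in each of them. The lncRNA gene WAKMAR2 overlaps 6.3% of the TNFAIP3 span in the table, and 1.9% of TNFAIP3 exon bases lie under its exons on the opposite strand in GENCODE 29. WAKMAR2 was counted 97 to 207 times per library, against 3756 to 11546 counts of TNFAIP3. It did not pass the test against vector (edgeR adjusted p = 0.169 for S136X, 0.184 for R58Q).

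TNIP2 (ENSG00000168884.15, chromosome 4, 2741648 to 2756342, minus strand) encodes ABIN2, which also binds the kinase TPL2. It was read at 17.8, 21.04 and 19.3 CPM in vector, 26.2, 33.5 and 32.8 CPM in S136X and 47.4, 47.0 and 54.0 CPM in R58Q. Again the groups did not overlap. The rise was 1.59-fold in S136X (log2 fold change 0.67, standard error 0.113, edgeR adjusted p = 0.00921) and 2.55-fold in R58Q (1.35, standard error 0.0895, edgeR adjusted p = 7.52e-05). Both calls were kept in every fit that left out 1 library (log2 fold change 0.62 to 0.78 in S136X and 1.28 to 1.42 in R58Q).

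TNIP1, which encodes ABIN1 (ENSG00000145901.16, chromosome 5, 151029945 to 151093577, minus strand), was the partner with the higher level and the smaller change. It was read at 153.2, 146.0 and 138.6 CPM in vector, 198.3, 187.4 and 183.6 CPM in S136X and 196.7, 184.5 and 188.5 CPM in R58Q. All 6 mutant libraries lay above vector, and the mutants overlapped each other. The change was 1.30-fold in S136X (log2 fold change 0.38, standard error 0.0626, edgeR adjusted p = 0.00829) and 1.30-fold in R58Q (0.38, standard error 0.0606, edgeR adjusted p = 0.0047). It passed the test on p and stayed under the 1.5-fold threshold in both. TNIP3, which encodes ABIN3 (ENSG00000050730.16, chromosome 4, 121131408 to 121227466, minus strand), had 0 counts in all 9 libraries, as had RNU6-948P, a small RNA gene inside it. A count of 0 allows up to 3 counts, or 0.0882 to 0.105 CPM depending on the library, and this limit covers counting error only.

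OTULIN, the deubiquitinase specific for linear chains (ENSG00000154124.5, chromosome 5, 14664664 to 14699850, plus strand), also rose. It was read at 71.0, 75.7 and 67.4 CPM in vector, 104.1, 111.5 and 107.0 CPM in S136X and 123.8, 115.1 and 126.4 CPM in R58Q. The groups did not overlap, and the spread within each was small. The rise was 1.51-fold in S136X (log2 fold change 0.59, standard error 0.0644, edgeR adjusted p = 0.00139) and 1.70-fold in R58Q (0.77, standard error 0.0668, edgeR adjusted p = 0.000275). The S136X value lies on the fold threshold, and the call was lost without vector replicate 3 (log2 fold change 0.57) and without S136X replicate 2 (0.58). It was also lost with upper-quartile factors (0.55) and with scaling to total counts alone (0.54). The adjusted p stayed at 0.00795 or lower whichever library was left out.

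CYLD, which removes linear and K63-linked chains (ENSG00000083799.18, chromosome 16, 50742050 to 50801935, plus strand), was read at 23.4, 29.7 and 30.03 CPM in vector, 27.9, 35.6 and 29.03 CPM in S136X and 32.8, 42.6 and 38.8 CPM in R58Q. The R58Q libraries lay above vector, and the S136X libraries overlapped it. CYLD differed from vector by 0.16 on the log2 scale in S136X (standard error 0.126, edgeR adjusted p = 0.472) and 0.46 in R58Q (standard error 0.125, edgeR adjusted p = 0.0344). The R58Q value lost significance in 5 of the 6 fits that left out 1 library, all but the one without R58Q replicate 1 (edgeR adjusted p between 0.0574 and 0.0937 in those 5). It also missed the threshold with upper-quartile factors (0.0558) and with total counts (0.0665). It was under 0.05 in 7 of the 14 alternative fits, among them the replicate block (edgeR adjusted p = 0.000665), DESeq2 (0.00435) and no filter on low counts (0.00128). The lncRNA genes AC007728.1 and AC007728.2, which overlap CYLD over 0.2% and 0.4% of its exon bases, had at most 25 counts, and MIR3181 at most 4.

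Of the LUBAC subunits, 0 of 3 passed the test in either mutant. Of all genes tested, 6.03% passed it as higher in S136X and 12.3% in R58Q. With 3 genes, a count of 0 does not set LUBAC apart from that background. RBCK1, which encodes HOIL-1 (ENSG00000125826.21, chromosome 20, 407498 to 432139, plus strand) was read at 60.2, 65.7 and 75.1 CPM in vector, 58.6, 80.5 and 79.6 CPM in S136X and 64.3, 88.2 and 82.8 CPM in R58Q. The groups overlapped. Its log2 fold change was 0.12 in S136X (95% interval -0.17 to 0.41, edgeR adjusted p = 0.591) and 0.23 in R58Q (-0.06 to 0.51, edgeR adjusted p = 0.233). With the replicate number as a block, the R58Q value was 0.22 at an edgeR adjusted p of 0.0373, still under the fold threshold. With 1 library left out RBCK1 ran from 0.0583 to 0.26 in S136X and from 0.14 to 0.36 in R58Q. The highest R58Q value, without R58Q replicate 1, passed on p (edgeR adjusted p = 0.0288), and the lowest was without R58Q replicate 2.

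SHARPIN (ENSG00000179526.17, chromosome 8, 144098633 to 144108124, minus strand), an adaptor subunit, was read at 63.3, 46.2 and 38.6 CPM in vector, 61.7, 36.1 and 36.7 CPM in S136X and 61.7, 43.8 and 38.9 CPM in R58Q. Replicate 1 was the highest library in every group, by more than any 2 group means differed. The log2 fold change was -0.14 in S136X (95% interval -0.67 to 0.39, edgeR adjusted p = 0.746) and -0.04 in R58Q (-0.52 to 0.44, edgeR adjusted p = 0.91). Without a block the S136X interval leaves room for a 1.5-fold fall. MAF1, a gene on the opposite strand that overlaps 33.2% of the SHARPIN span, was also highest in replicate 1 of every group (184.0, 161.9 and 161.8 CPM in vector, S136X and R58Q). MAF1 exons cover 1.4% of SHARPIN exon bases, and those of WDR97, with 94 to 187 counts, cover 2.4%. RBCK1 and CYLD ran the other way, with replicate 1 lowest in each group. With the replicate number as a block SHARPIN did not pass either, at -0.15 in S136X (standard error 0.0711, edgeR adjusted p = 0.147) and -0.04 in R58Q (standard error 0.0548, edgeR adjusted p = 0.636).

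RNF31, which encodes HOIP, the catalytic subunit of LUBAC (ENSG00000092098.17, chromosome 14, 24146683 to 24160660, plus strand), had 61, 66 and 64 counts in vector, 72, 61 and 44 in S136X and 57, 70 and 89 in R58Q. These are 1.81 to 2.72 CPM except for 1.54 CPM in S136X replicate 3. RNF31 shares its locus with the protein-coding gene AL136295.5 (24147548 to 24166452 in the table), which covers 93.8% of its span. In GENCODE 29, 34.8% of RNF31 exon bases lie under same-strand exons of that gene, and 47.8% of the 31-base words of its longest transcript occur in other genes. AL136295.5 itself had 32 to 47 counts per library. PSME2, a proteasome activator gene on the opposite strand, covers 4.3% of RNF31 exon bases with 3630 to 5322 counts, and it passed the test in S136X (0.36, edgeR adjusted p = 0.0251) and R58Q (0.54, edgeR adjusted p = 0.000906) at under 1.5-fold. Its part in the RNF31 counts was not tested. The pseudogene RNA5SP383, also inside RNF31, had 8 to 12 counts. The sources used here do not say how reads that fall on both genes were counted, so the RNF31 counts may hold only part of its reads and the level is uncertain. On these counts the log2 fold change was 0.05 in S136X (95% interval -0.45 to 0.54, edgeR adjusted p = 0.918) and 0.29 in R58Q (-0.15 to 0.73, edgeR adjusted p = 0.311).

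**Figure D2:**
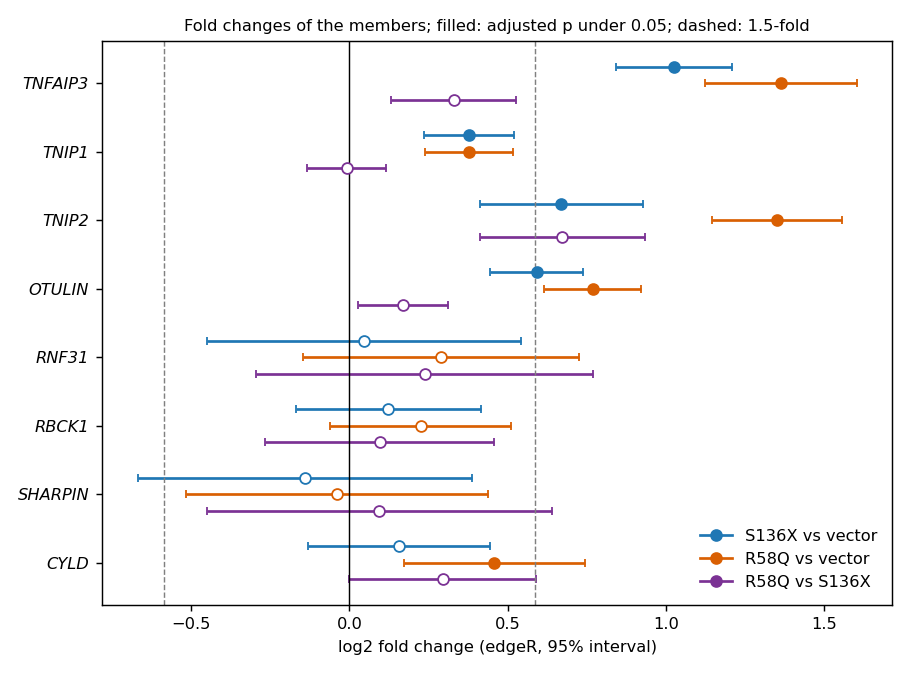
Log2 fold changes of the 8 tested members with 95% intervals from edgeR, for S136X and R58Q against vector and for R58Q against S136X (filled points have an adjusted p under 0.05, dashed lines mark 1.5-fold). TNFAIP3 and TNIP2 reach 1.36 and 1.35 in R58Q, while the intervals of RNF31, RBCK1 and SHARPIN include 0 in all 3 comparisons.

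Levels between genes were compared per kilobase of the longest GENCODE 29 transcript. In vector, TNIP1 was highest at 49.7 ± 2.48 CPM per kb (SD, n = 3), followed by SHARPIN at 27.98 ± 7.19, TNFAIP3 at 26.3 ± 2.81 and RBCK1 at 24.2 ± 2.72 CPM per kb. On this length the last 3 did not differ beyond their spread. TNIP2 at 9.66 ± 0.803 and OTULIN at 9.15 ± 0.538 CPM per kb were likewise side by side, and CYLD stood lower at 3.26 ± 0.44. In R58Q, TNFAIP3 at 67.8 ± 7.54 CPM per kb stood beside TNIP1 at 64.7 ± 2.11, and TNIP2 at 24.7 ± 1.97 beside SHARPIN at 27.3 ± 6.78 and RBCK1 at 28.3 ± 4.51. RNF31, with its uncertain counts, was lowest of the detected members at 0.641 ± 0.11 CPM per kb. The order depends on the length used. With the length of all exons together, TNIP1 in vector was 25.2 ± 1.26 CPM per kb beside 24.7 ± 2.63 for TNFAIP3, and RBCK1 at 16.7 ± 1.88 then lay below TNFAIP3 beyond their spread. In R58Q on that length, TNFAIP3 was 63.5 ± 7.07 CPM per kb, above TNIP1 at 32.8 ± 1.07. As a ratio of counts within a library, the 3 vector libraries had 1.84 to 1.89 TNFAIP3 reads for each RBCK1 read. The S136X libraries had 3.17 to 4.22 and the R58Q libraries 3.20 to 5.09.

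The mutants were then compared directly, since passing in one alone does not show a difference. In the edgeR fit reported first, which has no block, 0 of the 8 members were called between R58Q and S136X (0.434% of all genes tested). In that fit 0 passed on the adjusted p alone (0.533% of all genes). DESeq2 called 1, TNIP2. At an unadjusted p under 0.05 there were 3, TNFAIP3, TNIP2 and OTULIN (background 11%), which were also the 3 whose R58Q libraries all lay above S136X (9.45% of all genes). TNIP2 came closest, 1.59-fold higher in R58Q (log2 difference 0.67, 95% interval 0.41 to 0.93, edgeR adjusted p = 0.0578). It was called with the replicate number as a block (edgeR adjusted p = 3.05e-07), with DESeq2 (adjusted p = 1.77e-05), with no filter on low counts (edgeR adjusted p = 0.00035) and with all 9 libraries in one fit (edgeR adjusted p = 0.0149). It was not called in any fit that left out 1 library (edgeR adjusted p between 0.0873 and 0.211).

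TNFAIP3 was 1.26-fold higher in R58Q than in S136X (log2 difference 0.33, 95% interval 0.13 to 0.53, edgeR adjusted p = 0.171), with an edgeR adjusted p of 0.000161 under the block. For OTULIN the difference was 0.17 (0.03 to 0.31, edgeR adjusted p = 0.355, and 0.0202 under the block). For CYLD it was 0.29 (standard error 0.13, edgeR adjusted p = 0.454, and 0.00121 under the block). These 3 differences were under 1.5-fold. TNIP1 differed by -0.01 (95% interval -0.13 to 0.12, edgeR adjusted p = 0.985), an interval that leaves no room for a 1.5-fold difference in either direction. The later date of the R58Q libraries applies to every value in this comparison.

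The other genes of the pathway were counted in 6 lists, against the same 2.05% of all genes called higher in S136X and 4.09% in R58Q. The lists were written with earlier results of these data known, so the counts describe the lists and are no independent test. In the list named NF-kB inhibitor and feedback targets, 13 of 17 tested genes were called higher and 0 lower in S136X. In R58Q 15 were higher and 1 lower, and the median log2 fold changes were 0.82 and 1.22. This list also holds NF-kB subunits and genes such as ICAM1, CD83 and PLEK that are not inhibitors. Whether NF-kB acts on each gene in these cells was not tested. By the mean of both mutants, the largest changes were in PLEK (1.82 in S136X and 2.65 in R58Q), BCL2A1 (1.67 and 2.43), TRAF1 (1.25 and 2.61) and NFKBIA (0.99 and 2.03), at edgeR adjusted p of 0.000414 or lower. NFKBIA encodes IkBα, the inhibitor that holds NF-kB in the cytoplasm. Some genes stand in more than one list, RELB and BIRC3 among them. The vector libraries are shared by both comparisons. BCL3, which encodes an atypical IkB protein, was the gene called lower in R58Q (-0.61).

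Among A20 partners and other ubiquitin-binding adaptors (ITCH, TAX1BP1, RNF11, OPTN, N4BP1, ZFAND5, ZFAND6, SQSTM1 and IKBKG), 0 of 9 were called in either mutant, with medians of 0.13 in both. ITCH and TAX1BP1, which join A20 in its ubiquitin-editing complex, had log2 fold changes of 0.06 and 0.02 in S136X and 0.06 and 0.02 in R58Q. The autophagy adaptor SQSTM1 passed on p alone in both (0.40, edgeR adjusted p = 0.0262 and 0.49, edgeR adjusted p = 0.00797).

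Of 23 genes of the linear and K63 ubiquitin machinery, 1 was called higher in S136X and 4 in R58Q, with 0 lower and medians of 0.06 and 0.11. The ligase BIRC3 rose in both (0.78, edgeR adjusted p = 0.00184 and 1.22, edgeR adjusted p = 0.000139). Its paralog BIRC2 had 0.10 in S136X (edgeR adjusted p = 0.478) and rose in R58Q (0.71, edgeR adjusted p = 0.000362), and it was higher in R58Q than in S136X directly (0.60, edgeR adjusted p = 0.0242). The kinase RIPK2 and the chain-reading adaptor TAB2 were called in R58Q (0.80 and 0.61) and stayed under the fold threshold in S136X (0.36 and 0.34).

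Other deubiquitinases were counted in a pair of lists. Of 11 tested relatives of A20 and OTULIN in the OTU family, 0 were called in S136X and 1 in R58Q. This was OTUD7B, a negative regulator of NF-kB known as Cezanne (0.43, edgeR adjusted p = 0.156 in S136X and 0.66, edgeR adjusted p = 0.0302 in R58Q). On p alone, 2 of this family were higher and 1 lower in R58Q. The lower one was OTUD7A (-0.41, edgeR adjusted p = 0.0597 in S136X and -0.46, edgeR adjusted p = 0.0441 in R58Q). Of 12 other deubiquitinases linked to NF-kB, USP18 alone was called, in R58Q (3.05, edgeR adjusted p = 0.0101), with 2.41 in S136X (edgeR adjusted p = 0.0571). USP18 is an interferon-induced enzyme that removes ISG15, and its counts ran from 59 to 214 in vector, 142 to 1219 in S136X and 314 to 1453 in R58Q. A last list held 12 further genes whose products MALT1, or a fusion protein that contains it, is reported to cleave, MALT1 itself included. Of these, 2 were called in S136X and 3 in R58Q. They were BCL10, whose call the induced construct fixed in advance, LIMA1 (1.13 and 0.95) and, in R58Q, RELB (0.68).

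**Figure D3:**
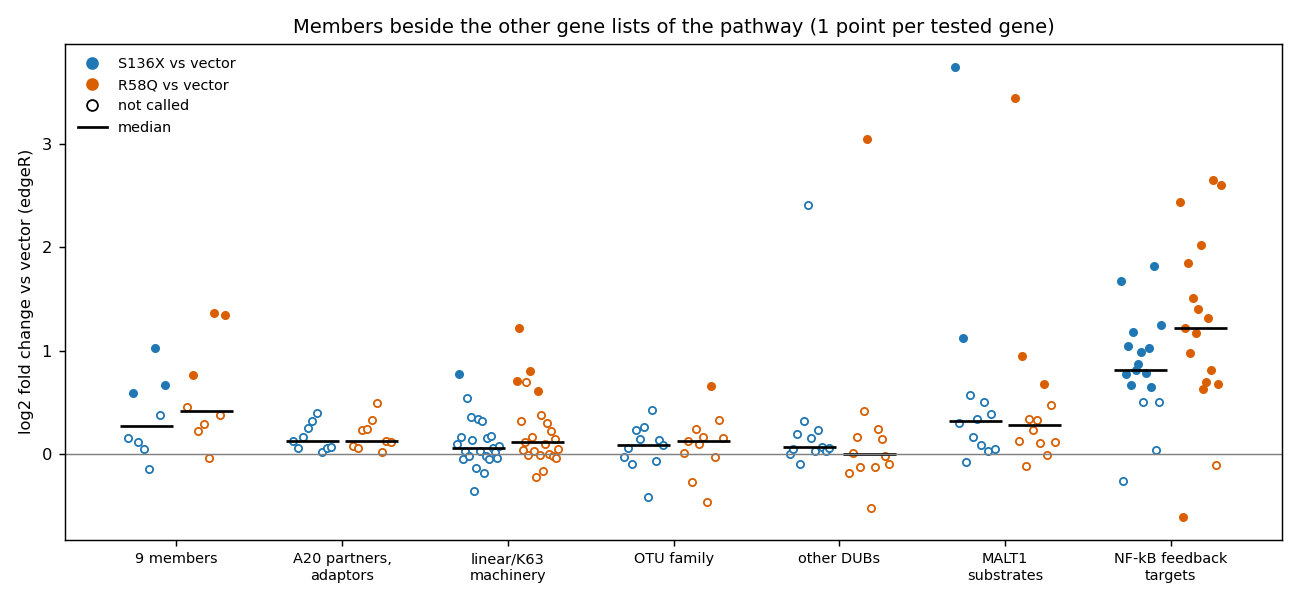
Log2 fold changes against vector (edgeR) for every tested gene of the members and of 6 other pathway lists, in S136X and R58Q (1 point per gene, filled where called, bars at the median). The list labelled NF-kB feedback targets, which also holds NF-kB subunits and other genes, has medians of 0.82 and 1.22. The members have 0.27 and 0.42, and the A20 partners 0.13 in both. The lists were written with earlier results of these data known.

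The genes with the profile most like each called member over the 9 libraries were found by the root mean square difference of log2 CPM centred on vector, among 15250 others. This is a description, and all profiles share the same libraries and vector centre. For TNFAIP3 they were CIITA (0.104 log2 units), NFKB2 (0.111), IL21R (0.119) and AEN (0.121), against a median of 1.04 over all genes. CIITA is the master regulator of MHC class II genes, and NFKB2 encodes the p100 precursor of the alternative NF-kB pathway. For TNIP2 they were JUNB (0.101), PSMA6 (0.12), SIAH2 (0.13) and HLA-E (0.131), with log2 fold changes from 0.62 to 0.75 in S136X and 1.29 to 1.33 in R58Q. JUNB is an AP-1 subunit and SIAH2 a ubiquitin ligase. For OTULIN they were USP12 (0.0729), PMAIP1 (0.0734), ECE1 (0.0835) and DDX21 (0.0886). USP12 is another deubiquitinase, and PMAIP1 encodes the pro-apoptotic protein NOXA.

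**Figure D4:**
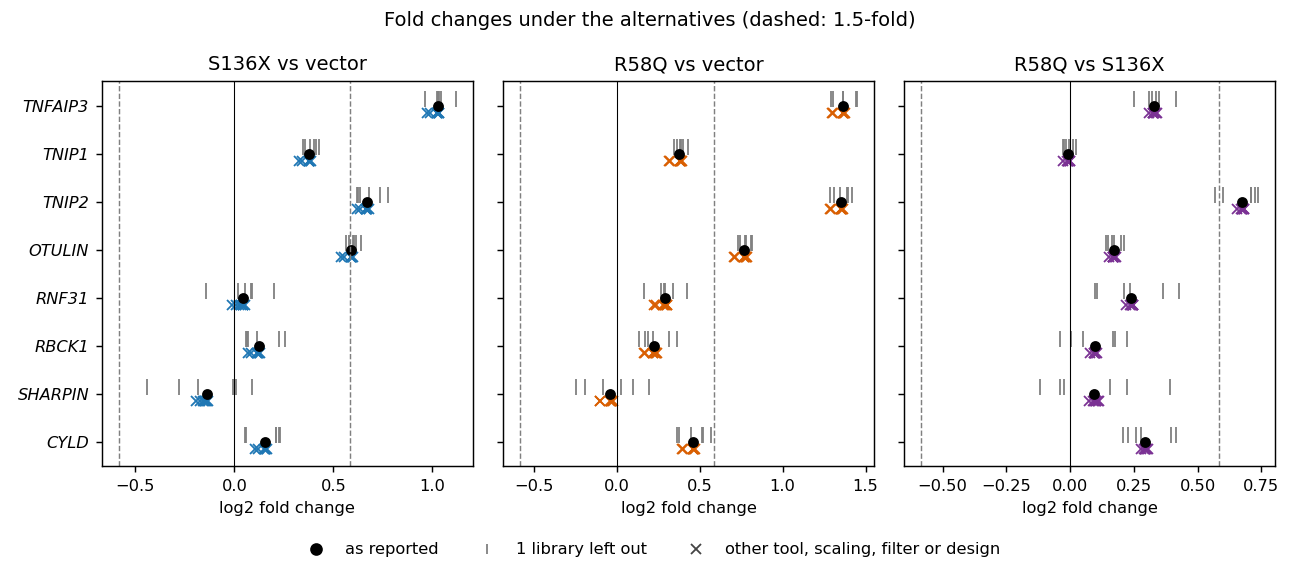
Log2 fold changes of the 8 tested members as reported (black points), with 1 library left out (grey ticks) and with another tool, scaling, filter or design (crosses), for the 3 comparisons (dashed lines mark 1.5-fold). TNFAIP3 and TNIP2 stay beyond 1.5-fold against vector in every fit drawn, OTULIN crosses that line in S136X, and SHARPIN lies on both sides of 0.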

How the data were processed

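Polyadenylated RNA was sequenced from 9 libraries. The authors deposited raw read counts per gene and a normalized signal, in which each library's counts are scaled by a single factor (not used here). The submitters' processing notes name STAR, cutadapt, Picard and hg38. The counting program, annotation and strand setting are not given in the sources used here. GENCODE 29 held 96.3% of the table's identifiers, 99.9% of those at overlapping positions.

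Each pair of groups was fitted on its 6 libraries in R 4.3.3 with edgeR 4.0.16 (filterByExpr, minimum count 10 and total 15, TMM factors, quasi-likelihood F test, Benjamini-Hochberg adjustment over all genes tested). The standard error was taken as the size of the log2 fold change over the square root of F. Alternatives were DESeq2 1.42.0, limma-voom (limma 3.58.1), other scalings, filters and thresholds, a joint fit of all groups, a replicate block and each library left out. The scripts were tested on simulated data with 200 genes changed 2-fold. Of these, edgeR called 74% in the S136X setting, 71% in the R58Q setting and 69.5% between mutants. Between mutants DESeq2 made 27 false calls and edgeR 14.

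Replicates carry the numbers 1 to 3 in every group. Across groups, deviations from the group means correlated at 0.143 to 0.626 in all 9 pairs of libraries with the same number. Pairs with different numbers had a median of -0.251, but vector 3 and R58Q 2 reached 0.169. Deviations cancel out within each group, so positive values for the same number pull the other pairs down. That median is therefore no separate evidence of pairing. By the values for the same number, the numbers pair most libraries, least clearly vector replicate 2 (0.143 with S136X 2 and 0.163 with R58Q 2). The labels do not state a pairing. The fits reported first have no block, and the blocked value is given beside a result where it changes a call. Within groups, replicates differed beyond sampling noise (chi-square 7.21 to 23 per degree of freedom). The paper calls them biologic replicates. The labels do not say that they were separate cultures, and p-values measure the spread between these libraries.

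The members and lists were chosen with earlier results of these data known. Named genes are the members, BCL10, genes overlapping a member, up to 4 called genes of each list with the largest mean change, and the 4 nearest profiles of each called member. ITCH, TAX1BP1, SQSTM1, BCL3, OTUD7A and the marker genes given with values were named after their values were seen.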

Additional observations from a re-analysis of the deposited data

How the results depend on the processing

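Against vector, TNFAIP3 and TNIP2 were called in both mutants, and OTULIN in R58Q, under all 14 alternative fits. At a 2-fold threshold 1 member was called in S136X (TNFAIP3) and with no fold threshold 5 were called in R58Q. Between the mutants 1 member, TNIP2, was called with DESeq2, with no filter, with all 9 libraries in one fit and with the replicate block, and 0 otherwise. The block changed no other call. Some values of members that were not called changed sign: RNF31 in S136X was -0.0106 with total counts and -0.14 to 0.20 with 1 library left out, and TNIP1 between mutants was 0.0009 with all libraries in one fit and -0.0292 to 0.0243 with 1 left out. With 1 left out, SHARPIN ran from -0.44 to 0.0883 in S136X, -0.25 to 0.19 in R58Q and -0.12 to 0.39 between mutants, and RBCK1 between mutants from -0.0387 to 0.22. The causes were not tested.

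Over all genes, the called count in S136X was 601, and it was 934 with no filter, 1014 with the block, 279 without vector replicate 2 and 349 without S136X replicate 3. In R58Q it was 1178, with 719 without vector replicate 2 and 778 without R58Q replicate 3. Between mutants it was 66, with 146 for DESeq2, 165 with no filter, 114 in one fit, 446 with the block and 5 to 63 with 1 library left out. Total counts gave 257 higher and 368 lower in S136X (319 and 282 as reported) and 549 and 741 in R58Q (632 and 546). Upper-quartile factors gave 277 and 333, and 542 and 772. RNF31, at 44 to 89 counts, and SHARPIN, with its spread between replicates, had the widest intervals against vector.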
